A study of Homo sapiens with 14 samples.

Results

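The genes described here encode the matrix of the lung fibroblast apart from its collagens. They are a list of 45 genes for laminins and other basement membrane proteins, elastic fibre and microfibril proteins, lysyl oxidases, proteoglycans, and adhesive or matricellular glycoproteins. Members were matched by gene symbol, and all 45 were found among the 54628 symbols of the wild type and knockdown tables, as well as in the other tables. Lists of this kind hold genes with separate roles, so the results are given role by role.

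Fibroblasts secrete the proteins that surround them in connective tissue. Laminins, nidogens and perlecan build the sheet-like basement membrane. Elastin is laid down on a scaffold of fibrillin microfibrils with the help of fibulins, and lysyl oxidases cross-link elastin and collagen. Small leucine-rich proteoglycans bind collagen fibrils and growth factors, versican binds hyaluronan, and matricellular proteins such as tenascin C, periostin and the thrombospondins tune how cells attach and signal. Senescent fibroblasts are known for an altered output of such secreted and matrix proteins.

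IMR90 is a widely used line of fibroblasts from human lung, and its poly(A) RNA was profiled in 7 groups. Isolates of the line, called I79 and I10, were each taken while young and dividing and again when old, after passaging into replicative senescence, and every one of these 4 groups is represented by 1 deposited table. I79 was also sampled after ICM (inflachromene), a compound known to bind HMGB1 and HMGB2, both of them chromatin proteins, with 2 replicates whose titles carry neither dose nor time. The last groups, wild type (WT) and cells with HMGB2 depleted by siRNA (HMGB2 KD), had 2 replicates each, and their labels name neither an isolate nor a control siRNA. No label says whether replicates came from separate cultures, so p-values measure the spread between these libraries, which may be technical.

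Depth ran from 33561766 to 41168932 counts in WT and HMGB2 KD, from 14991385 to 20632959 estimated counts in the young and old tables, and to 13290131 and 10971132 reads in ICM. The targeted gene, HMGB2, read 27.1 and 27.3 CPM (counts scaled to library size) in the WT pair against 3.22 and 3.64 CPM after knockdown, with a log2 fold change of -2.99 and an adjusted p of 8.3e-07 by edgeR. All 7 fibroblast markers were detected in every library, with a summed level between 10614 and 31746 CPM, while the summed epithelial, endothelial and leukocyte lists reached at most 77.6, 207.0 and 151.0 CPM. CDH5 and CD3E, defining markers of endothelium and T cells, and SFTPC on the epithelial list were at 0 throughout. Other markers on these lists were detected: TEK at 48.5 to 204 CPM, CD68 at 22.9 to 151 CPM and KRT18 at 16.5 to 76.8 CPM. Members took 2.52% and 2.92% of gene counts in WT, 3.69% and 4.01% in HMGB2 KD, between 3.25% and 3.93% in the young and old tables, and 1.46% and 1.52% in ICM. In bulk RNA of this kind, fewer cells of a type and less RNA per cell cannot be told apart.

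Levels of different members can be compared only per unit length, as TPM, a share of all transcripts after division by length, which the young and old tables provide. SPARC, a collagen-binding matricellular protein, had the highest mean TPM over those 4 tables, 3209, followed by TGFBI at 2457, DCN at 2374 and FN1 at 2347. THBS1 followed at a mean of 704 TPM. At the low end, TNXB, MFAP5, PRELP, HAPLN1 and ASPN all had means under 1 TPM. With 1 table per group, the order of the 4 leading genes has no error, and it differed between tables: DCN was above FN1 in I79 old and I10 old but below it in I79 young and I10 young.

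The first comparison asked which of these genes change when HMGB2 is depleted. Most of those that moved were higher: after knockdown, 13 members were called higher and 1 lower among the 39 tested (edgeR quasi-likelihood test, adjusted p under 0.01 and a log2 fold change, log2FC, beyond 0.6 in size). Over all 15338 genes tested, 2.86% were called higher and 2.34% lower. The median log2FC of the tested members was 0.41, against 0.0 for all genes. The 13 genes that rose were ELN, FBLN2, FBLN5, EFEMP1, MFAP2 and LTBP2 of the elastic fibre, LOX and LOXL2 among cross-linking enzymes, the proteoglycan BGN, and FN1, POSTN, TNC and THBS1 among adhesive proteins. THBS2 fell. MFAP5, ASPN, OGN, PRELP, HAPLN1 and TNXB had too few counts to be tested. Scaling by plain library totals gave 385 higher and 484 lower genes in place of 438 and 359, and 12 higher members and 1 lower.

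Calls among the members depended on single libraries. Without HMGB2 KD replicate 2, 6 members were called (5 higher, 1 lower), and 312 genes in all. EFEMP1 (log2FC 0.53) and FBLN5 (0.58) fell under 0.6 without WT replicate 1. Without WT replicate 2 the log2FC was 1.29 for LAMA4, 1.06 for HSPG2, 0.87 for SPARC and 0.82 for LOXL1. With all libraries these were 0.78, 0.74, 0.69 and 0.63, and none of them was called. ELN, FBLN2, MFAP2, LOXL2, POSTN and THBS2 stayed called in each of the 11 other fits, including every fit without 1 library, whereas EFEMP1 was lost in 4 of them and FBLN5, LOX and THBS1 in 3. The 7 fibroblast markers summed to 18127 and 24697 CPM in the WT pair against 26552 and 31746 CPM after knockdown. They did not move as a group: in 4 of them (COL1A1, COL1A2, PDGFRB and VIM) both knockdown libraries were above the WT pair, in COL3A1 and PDGFRA both were below it, and in THY1 the pairs overlapped. The part of these markers in the results was not tested.

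**Figure D1:**
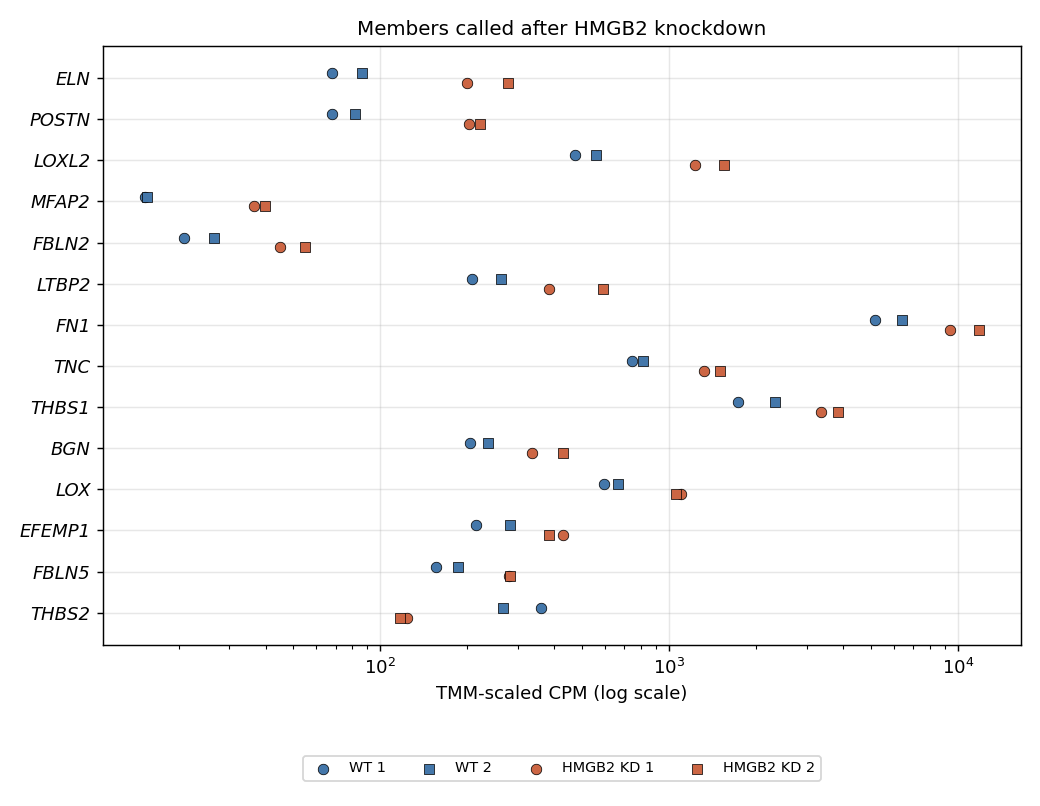
Level of each of the 14 members called after HMGB2 knockdown, in TMM-scaled CPM on a log axis, with 1 point per library (circles replicate 1, squares replicate 2; blue WT, orange HMGB2 KD). In every gene both knockdown points lie on the same side of both WT points, to the right in 13 genes and to the left in THBS2.

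Elastic fibre genes, the largest role group, held the highest number of calls, 6 of 13 tested, all higher. The share called was higher among adhesive and matricellular genes, 62.5% against 46.2%. ELN, which encodes elastin (chromosome 7, 73442119 to 73484237 on GRCh37), stood at 68.1 and 86.3 CPM in the WT pair against 199 and 277 CPM in the knockdown pair. Its log2FC was 1.62 (SE 0.17, adjusted p 7.6e-05 by edgeR). MFAP2, a microfibril component (chromosome 1, 17300997 to 17307127), went from 15.3 and 15.6 CPM to 36.5 and 39.7 CPM. Its replicates were close within each group, at 15.4 ± 0.182 and 38.1 ± 2.29 CPM (SD, n = 2), and its log2FC was 1.30 (SE 0.14, adjusted p 7e-05).

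LTBP2, a fibrillin-binding relative of the latent TGF-beta binding proteins, stood at 207 and 261 CPM in the WT pair against 384 and 592 CPM in the knockdown pair (log2FC 1.06, SE 0.19, adjusted p 0.0028 by edgeR). The 2 knockdown libraries differed from each other more than the WT pair did, and without HMGB2 KD replicate 2 its log2FC was 0.72 and no longer called. FBLN2, a fibulin of elastic tissue and basement membranes, had 20.9 and 26.5 CPM in WT against 44.9 and 55.0 CPM (1.07, SE 0.16, adjusted p 0.00058). For FBLN5, a fibulin needed to assemble elastic fibres, the WT values of 156 and 186 CPM were followed by 278 and 282 CPM (0.71, SE 0.14, adjusted p 0.0049). EFEMP1, or fibulin 3, had 215 and 281 CPM in the WT pair against 429 and 384 CPM in the knockdown pair (0.71, SE 0.16, adjusted p 0.0094), the adjusted p nearest the threshold among the called members.

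The remaining elastic fibre genes missed. EFEMP2, or fibulin 4, came closest with a log2FC of 0.52 and an adjusted p of 0.028 (edgeR). FBN1 and FBN2, the fibrillins, had values of 0.29 and 0.30, LTBP1 of 0.31, EMILIN1 of 0.32, MFAP4 of 0.13 and FBLN1 of -0.04, with adjusted p between 0.21 and 0.89. In FBN1, FBN2, MFAP4 and FBLN1 the WT and knockdown libraries overlapped.

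All 5 lysyl oxidases had positive values after knockdown, and 2 were called. LOX, the founding enzyme of the family (chromosome 5, 121398890 to 121414108), stood at 597 and 665 CPM in the WT pair against 1095 and 1060 CPM in the knockdown pair, with a log2FC of 0.77 (SE 0.14, adjusted p 0.0032 by edgeR). LOXL2 (chromosome 8, 23154410 to 23282841) went from 473 and 560 CPM to 1230 and 1550 CPM (1.43, SE 0.16, adjusted p 0.00012), which is 2.69-fold. LOXL4 had 6.05 and 7.29 CPM in the WT pair against 11.2 and 12.1 CPM in the knockdown pair. Although these did not overlap, its log2FC of 0.81 missed with an adjusted p of 0.011. DESeq2 called LOXL4 (adjusted p 0.0055). LOXL1 had a value of 0.63 (adjusted p 0.050), and LOXL3 of 0.08 (adjusted p 0.82).

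Among adhesive and matricellular glycoproteins, 4 of 8 tested were called higher and 1 lower. POSTN, or periostin, a matricellular protein of collagen-rich tissue (chromosome 13, 38136720 to 38172981), stood at 67.8 and 81.6 CPM in the WT pair against 202 and 221 CPM in the knockdown pair. It was 2.83-fold higher (SE of the log2FC 0.14, adjusted p 3.9e-05 by edgeR), the smallest adjusted p among the members. FN1, or fibronectin, the main adhesive glycoprotein of the fibroblast matrix, had 5153 and 6414 CPM in the WT pair against 9428 and 11817 CPM in the knockdown pair (0.88, SE 0.17, adjusted p 0.0038). FN1 alone made up 0.526% and 0.657% of gene counts in WT and 0.93% and 1.14% in HMGB2 KD.

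TNC, or tenascin C, stood at 743 and 812 CPM in the WT pair against 1322 and 1505 CPM in the knockdown pair, a log2FC of 0.86 (SE 0.15, adjusted p 0.0019 by edgeR). THBS1, the thrombospondin that can activate latent TGF-beta, had 1726 and 2327 CPM in the WT pair against 3350 and 3832 CPM in the knockdown pair (0.83, SE 0.17, adjusted p 0.0061). Its relative THBS2 (chromosome 6, 169615875 to 169654145) went the other way, from 360 and 265 CPM to 124 and 117 CPM (-1.37, SE 0.16, adjusted p 0.00013). Both thrombospondins thus had separate WT and knockdown values but opposite directions. SPARC missed with a value of 0.69 and an adjusted p of 0.012, TGFBI had 0.19 and ECM1 had 0.20. The miss of SPARC depended on the fit, as DESeq2 called it (adjusted p 8.1e-05).

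BGN, or biglycan, was the only proteoglycan among the members that was called after knockdown in the fit described here. It stood at 204 and 235 CPM in the WT pair against 335 and 428 CPM in the knockdown pair (log2FC 0.80, SE 0.16, adjusted p 0.0045 by edgeR). Decorin (DCN), its nearest relative in structure, had a value of -0.04 (adjusted p 0.91), LUM of -0.31, FMOD of -0.16 and the large proteoglycan VCAN of 0.04 (adjusted p 0.93). WT and knockdown libraries overlapped for DCN, LUM and VCAN.

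None of the 8 basement membrane genes was called after knockdown. LAMA4, a laminin alpha chain, had the largest value, 0.78, but its WT libraries lay far apart at 84.3 and 157 CPM (200 and 214 CPM in HMGB2 KD, adjusted p 0.030 by edgeR). HSPG2, or perlecan, had 0.74 with an adjusted p of 0.039. LAMB1, LAMB2, LAMC1 and NID1 had values between 0.39 and 0.41 and adjusted p between 0.080 and 0.11. LAMA2 and NID2 had negative values, -0.34 and -0.41. Their WT and knockdown libraries did not overlap, as for 31 of the 39 tested members and 53.8% of all genes tested.

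The next comparison set old against young cells over both isolates. Here the members moved in both directions: 8 were called higher and 7 lower of 42 tested, by the same test with the isolate as a covariate. This fit left 1 residual degree of freedom, and the spread it measures is how far the change differed between the isolates. Of all 15135 genes tested, 5.6% were called higher and 3.67% lower. The median member value was 0.2, against -0.01 for all genes. Cross-linking enzymes rose (LOX, LOXL2, LOXL3) together with NID2, FBN2, EFEMP2, LUM and ECM1, and the genes that fell were LAMA2, ELN, MFAP2, OGN, VCAN, POSTN and THBS2. OGN, with at most 1 estimated count in the old tables, passed the count filter only through the young ones, so its call is no support for the 7. MFAP5, ASPN and HAPLN1 were not tested. Scaling by plain library totals moved the median of all genes by -0.22 and the split of all calls from 847 higher and 556 lower to 1025 higher and 2116 lower, and that of the members to 9 higher and 12 lower, with no called member changing direction.

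**Figure D2:**
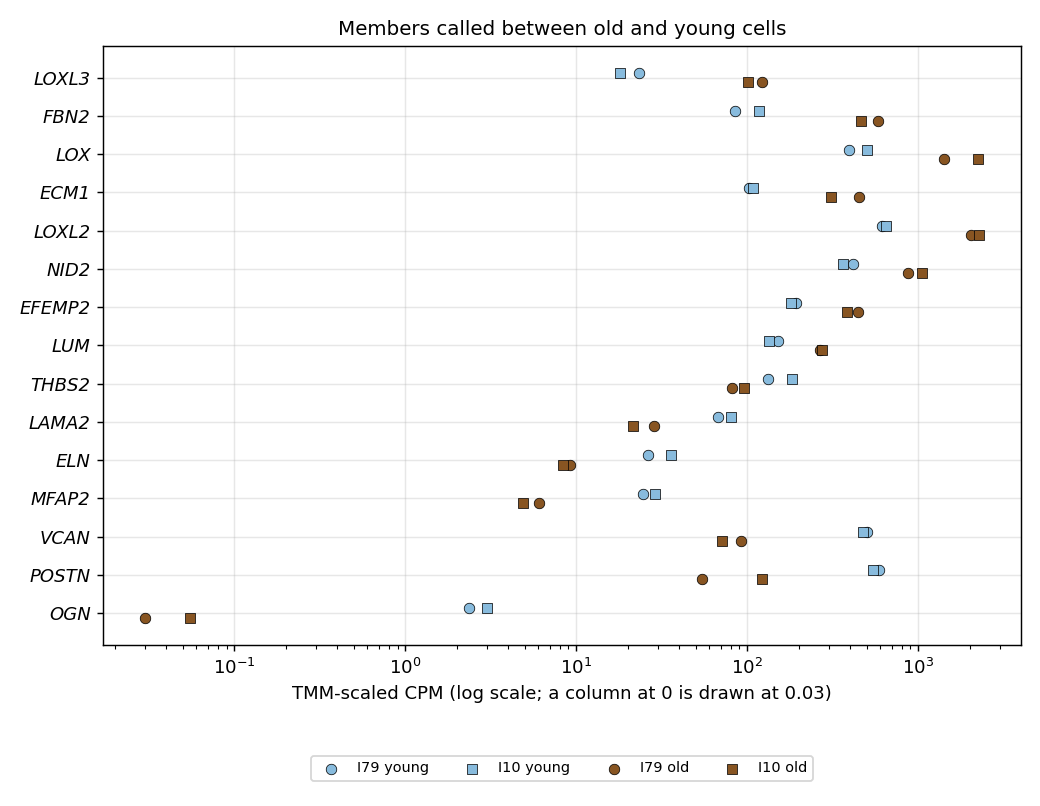
Level of each of the 15 members called between old and young cells, in TMM-scaled CPM on a log axis, with 1 point per deposited table (circles I79, squares I10; blue young, brown old). Both old points lie beyond both young points in every gene, to the right in the 8 upper genes and to the left in the 7 lower ones; OGN in I79 old is at 0 and drawn at 0.03.

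Lysyl oxidases were the role group with the highest median, 1.77, and all 5 had positive values in both isolates. LOX stood at 396 CPM in I79 young and 1424 CPM in I79 old, and at 500 and 2248 CPM in I10 young and old. Its log2FC was 2.01 (SE 0.17, adjusted p 0.0048 by edgeR). LOXL2 went from 616 to 2045 CPM in I79 and, in I10, from 648 to 2263 CPM (1.77, SE 0.15, adjusted p 0.0050). LOXL3 went from 23.2 to 122 CPM and from 18.1 to 101 CPM (2.44, SE 0.11, adjusted p 0.0034), a 5.41-fold rise and the largest of the members. LOXL1 and LOXL4 had values of 0.62 and 0.86 and missed, with adjusted p of 0.018 and 0.050.

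Within the elastic fibre, FBN2 and EFEMP2 rose while ELN and MFAP2 fell. FBN2, the fibrillin typical of developing tissue, stood at 84.5 CPM in I79 young and 580 CPM in I79 old, and at 117 and 462 CPM in I10 (log2FC 2.38, SE 0.23, adjusted p 0.0055 by edgeR). EFEMP2, which fibroblasts need to recruit LOX to elastin, went from 193 to 442 CPM and from 180 to 382 CPM (1.14, SE 0.12, adjusted p 0.0060). ELN itself went from 26.2 to 9.17 CPM in I79 and, in I10, from 36.0 to 8.40 CPM (-1.81, SE 0.19, adjusted p 0.0065). MFAP2 fell in the same tables from 24.6 to 6.02 CPM and from 28.8 to 4.86 CPM (-2.29, SE 0.20, adjusted p 0.0048).

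Other elastic fibre genes missed in this comparison. Positive values were 0.77 for EFEMP1 and 0.73 for LTBP1, with adjusted p of 0.026 and 0.027 (edgeR). Negative ones were -0.55 for FBN1, -0.57 for MFAP4, -0.29 for FBLN1 and -0.22 for EMILIN1. FBLN2, FBLN5 and LTBP2 had pooled values of -0.29, -0.04 and -0.03, each with opposite signs in the isolates under TMM scaling.

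VCAN, or versican, the large hyaluronan-binding proteoglycan, fell in old cells (log2FC -2.58, SE 0.14, adjusted p 0.0034 by edgeR). It stood at 500 CPM in I79 young and 92.5 CPM in I79 old, and at 473 and 71.0 CPM in I10. HAPLN1, the link protein that ties versican to hyaluronan and lies 55502 bases from VCAN on chromosome 5, was barely detected, at 0.574 CPM or less in each of the 4 tables. LUM, or lumican, rose from 152 to 267 CPM in I79 and, in I10, from 134 to 273 CPM (0.92, SE 0.12, adjusted p 0.0086). Its chromosome 12 neighbour DCN, 28990 bases away, had a value of 1.11 but an adjusted p of 0.018, with 1566 and 2896 CPM in I79 and 1190 and 2995 CPM in I10. In other fits DCN was called higher, by DESeq2 (adjusted p 2.4e-09) and under plain library totals (adjusted p 0.0048, edgeR).

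Low counts set a limit for the remaining small proteoglycans. OGN, or osteoglycin, had 37 estimated counts in I79 young and 0 in I79 old, at least 14.5-fold lower when a count of 0 is read as 3 counts in that table. In I10 it had 58 and 1 estimated counts, with a counting interval of the log2 ratio from -11.10 to -3.24 (exact, 95%). It was called lower (adjusted p 0.0080 by edgeR) but entered the test only through the young tables. ASPN, its neighbour on chromosome 9, reached at most 0.313 CPM. BGN had a value of -0.51 (adjusted p 0.026), FMOD of 0.44 and PRELP of -0.32, the last at no more than 1.98 CPM.

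Of the adhesive and matricellular genes, POSTN and THBS2 fell and ECM1 rose. POSTN stood at 593 CPM in I79 young and 54.5 CPM in I79 old, and at 544 and 122 CPM in I10, a log2FC of -2.80 (SE 0.34, adjusted p 0.0080 by edgeR). THBS2 went from 132 to 81.3 CPM and from 182 to 95.4 CPM (-0.82, SE 0.11, adjusted p 0.0099). Its call was the closest to the threshold and was lost in 2 of 7 other fits. ECM1, a glycoprotein that binds perlecan and other matrix proteins, went from 102 to 451 CPM in I79 and, in I10, from 108 to 307 CPM (1.83, SE 0.19, adjusted p 0.0062).

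TNC had a large value, -1.83, that missed with an adjusted p of 0.035 (edgeR). Its level was lower in old cells of both isolates but by different amounts, from 1937 to 307 CPM in I79 and, in I10, from 1831 to 914 CPM. FN1 had a value of 0.21 (adjusted p 0.55), with 7784 and 7869 CPM in I79 and 10194 and 13432 CPM in I10. SPARC and THBS1 had values of 0.48 and 0.41, TGFBI of -0.04, and TNXB of 1.01 with an adjusted p of 0.039. TNXB has a near-identical pseudogene copy beside it, so its reads are uncertain.

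Basement membrane genes gave 1 call in each direction. NID2, which links laminin to collagen networks, went from 415 to 867 CPM in I79 and, in I10, from 365 to 1052 CPM (log2FC 1.29, SE 0.17, adjusted p 0.0092 by edgeR). LAMA2, the laminin alpha chain best known from muscle, went from 67.9 to 28.6 CPM and from 80.8 to 21.4 CPM (-1.58, SE 0.19, adjusted p 0.0079). HSPG2, LAMB2 and LAMC1 had values of 1.10, 0.89 and 0.75 and LAMA4 of -1.10, with adjusted p between 0.020 and 0.037. LAMB1 and NID1 had 0.19 and 0.01. NID1 and NID2, the nidogens, therefore stood apart in old cells: NID1 was at 304 and 313 CPM in I79 and 257 and 254 CPM in I10.

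The isolates had values of the same sign for 35 of 42 tested members, and for 80.8% of all genes tested. The fibroblast markers summed to 27491 and 18638 CPM in I79 young and old, and 26609 and 24588 CPM in I10. By CPM over plain library totals, PDGFRB, THY1 and VIM were higher in old cells of both isolates and COL1A1, COL3A1 and PDGFRA lower. COL1A2 differed in direction, but its I79 change was small, from 5433 to 5046 CPM. Member values are TMM-scaled, and marker directions on that scale were not examined. Endothelial and leukocyte lists were higher in old cells, from 71.6 and 102.0 to 151.0 and 207.0 CPM and from 23.1 and 25.3 to 76.6 and 151.0 CPM, nearly all of it TEK and CD68. PTPRC stayed at 0.199 CPM or less in these 4 tables. What part these markers had in the results was not tested.

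Side by side, the knockdown and the old cells shared 6 called members. These were 42.9% of the members called after knockdown and 40% of those called in old cells, or 15.4% of the 39 members tested in both. Of all 12695 genes tested in both, 1.27% were called in both, 94 in the same direction and 67 in opposite ones. With 14 and 14 calls among those 39 members, a shared count of this size is not read as particular to them. Spearman's rho between the log2FC values was -0.19 across the 39 members and 0.1 across all genes tested in both, given as a description across genes, which are not replicates. LOX and LOXL2 were higher in both comparisons and THBS2 was lower in both. ELN, MFAP2 and POSTN were higher after knockdown and lower in old cells. The libraries of these comparisons do not overlap, so neither value borrows from the other. VCAN, with a value of 0.04 after knockdown and -2.58 in old cells, and LOXL3, with 0.08 and 2.44, were called in old cells and not after knockdown, a difference that was not tested.

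**Figure D3:**
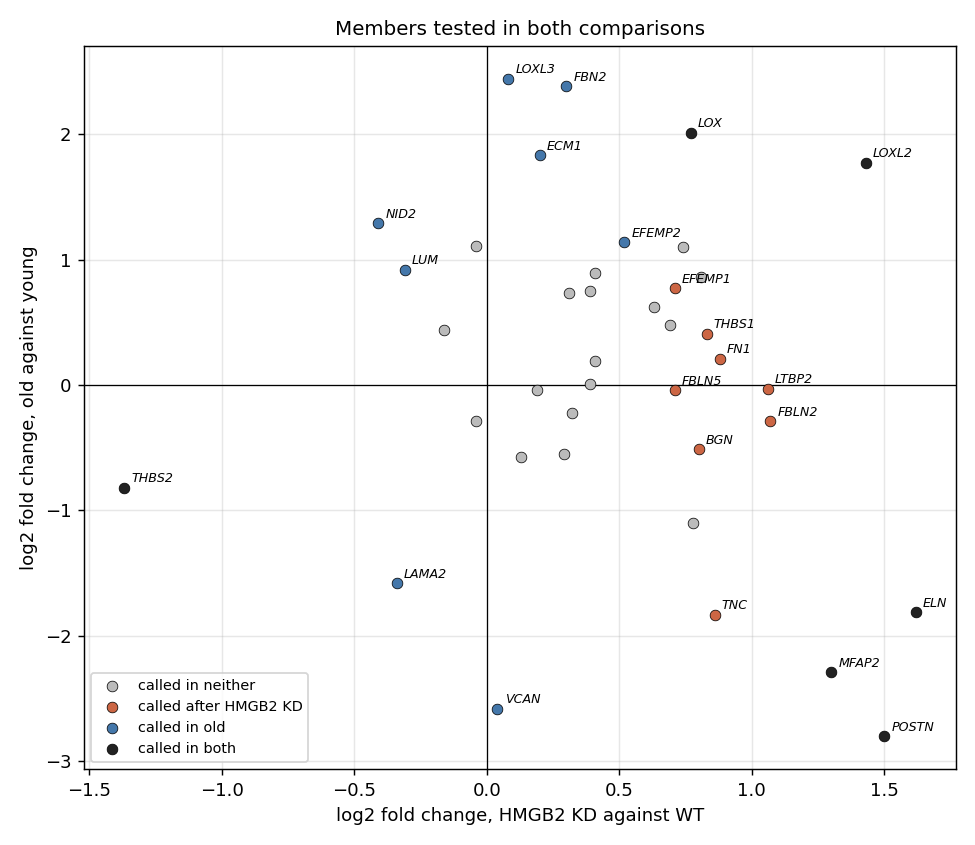
Log2FC of each of the 39 members tested in both comparisons, HMGB2 KD against WT on the horizontal axis and old against young on the vertical axis, coloured by where the gene was called. LOX and LOXL2 lie in the upper right, THBS2 in the lower left, and ELN, MFAP2 and POSTN in the lower right.

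Promoters are shown for POSTN, MFAP2, LOX and THBS2, the members called in both comparisons that have an entry in the RefSeq promoter table used here (GRCh38.p14, first listed start, from 250 bases before to 50 bases after it, 5′ to 3′ on the gene's strand). Capitals mark TATAAA and the AP-1 motif TGAGTCA or TGACTCA on either strand. The windows are chr13:37598719-37599018, chr1:16981534-16981833, chr5:122078210-122078509 and chr6:169253797-169254096, all on the minus strand.
POSTN: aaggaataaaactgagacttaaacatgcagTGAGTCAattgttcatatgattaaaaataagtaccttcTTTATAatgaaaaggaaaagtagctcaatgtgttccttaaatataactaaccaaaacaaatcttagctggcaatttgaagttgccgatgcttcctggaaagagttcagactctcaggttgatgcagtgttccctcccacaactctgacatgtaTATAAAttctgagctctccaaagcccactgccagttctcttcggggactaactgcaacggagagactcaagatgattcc
MFAP2: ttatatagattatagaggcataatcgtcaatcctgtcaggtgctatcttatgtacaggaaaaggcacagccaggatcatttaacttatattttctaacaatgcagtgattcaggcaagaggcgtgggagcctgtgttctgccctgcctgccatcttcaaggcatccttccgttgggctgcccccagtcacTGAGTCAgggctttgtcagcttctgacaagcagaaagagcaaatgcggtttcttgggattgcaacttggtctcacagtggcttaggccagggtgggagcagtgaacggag
LOX: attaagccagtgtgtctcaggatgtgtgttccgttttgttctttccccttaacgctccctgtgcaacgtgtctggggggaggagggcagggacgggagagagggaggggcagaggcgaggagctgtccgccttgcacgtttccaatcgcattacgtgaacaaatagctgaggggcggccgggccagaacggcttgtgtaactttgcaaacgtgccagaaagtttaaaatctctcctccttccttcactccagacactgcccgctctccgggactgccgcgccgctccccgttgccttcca
THBS2: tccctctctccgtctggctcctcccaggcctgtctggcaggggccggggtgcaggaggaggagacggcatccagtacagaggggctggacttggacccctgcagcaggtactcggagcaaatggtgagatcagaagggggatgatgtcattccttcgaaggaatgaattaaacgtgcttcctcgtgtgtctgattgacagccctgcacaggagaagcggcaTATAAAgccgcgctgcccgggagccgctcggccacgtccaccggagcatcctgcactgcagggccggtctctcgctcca

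TATAAA occurred in the printed POSTN and THBS2 windows, and in 11.5% of all 35116 promoters of the table. The AP-1 letters occurred in the POSTN and MFAP2 windows, and in 4.95% of all promoters. Over the 37 members with an entry, 6 held TATAAA in a listed window (ECM1, FBLN5, FMOD, OGN, POSTN and THBS2) and 3 held the AP-1 letters (ECM1, MFAP2 and POSTN). The LOX window held neither. The members have 47 listed windows in all, and a match in any window of a gene counted. The shares of all promoters are per window, so the member counts are an unlike measure. These are matches of letters only.

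The deposited transcript tables also gave the share of each gene's reads assigned to its forms. In FN1 the clearest pattern was in its optional exons, EDA and EDB, each of which codes for an extra fibronectin type III repeat. EDA lies at chr2:216245534-216245803 and EDB at chr2:216257654-216257926 on GRCh37, both coding exons of FN1 on the minus strand and printed 5′ to 3′ because their use differed between young and old cells.
EDA: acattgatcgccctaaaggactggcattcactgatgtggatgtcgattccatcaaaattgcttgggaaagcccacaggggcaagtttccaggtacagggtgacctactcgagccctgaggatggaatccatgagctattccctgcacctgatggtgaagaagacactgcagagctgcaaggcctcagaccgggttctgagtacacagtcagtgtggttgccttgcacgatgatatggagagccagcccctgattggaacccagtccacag
EDB: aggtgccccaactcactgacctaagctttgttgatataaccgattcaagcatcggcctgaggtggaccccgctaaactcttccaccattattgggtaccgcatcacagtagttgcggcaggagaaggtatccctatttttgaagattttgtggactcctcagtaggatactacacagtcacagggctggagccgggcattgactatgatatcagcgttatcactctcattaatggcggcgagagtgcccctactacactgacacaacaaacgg

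Of FN1 estimated counts on annotated transcripts that cover EDA or skip it, 69.9% were on transcripts with EDA in I79 young and 54.3% in I79 old. In I10 the shares were 70.5% and 54.7%. EDB was in 43.8% and 32.7% of such counts in I79 young and old, and in 42.3% and 31.9% in I10. Both exons were thus less used in the old table of each isolate, with denominators of at least 102973 estimated counts. Each share rests on 1 table and on the quantifier's division of reads among transcripts, and no test was run.

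VCAN is spliced into forms with both (V0), the second (V1), the first (V2) or neither (V3) of its chain-bearing exons. V1 held 67.2% and 71.6% of counts on full-length transcripts in I79 young and old, and 61.6% and 72.5% in I10, and V0 held nearly all the rest. V2 and V3 were at 0 in 3 of 4 tables and at 0.352% and 0.0299% in I10 young.

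The forms of TNC differed most in I79. TNC-202, a transcript of 28 exons, held 53.2% of TNC counts in I79 young and 29.2% in I79 old, against 54.3% and 44.7% in I10. TNC-209, a shorter one of 21 exons, went from 4.6% to 43.6% in I79 and from 4.58% to 14.1% in I10. The long form of LTBP1, from the upstream start, held 11.9% and 10.7% in I79 and 13.1% and 13.4% in I10. For FBLN1, the share of FBLN1-202 was 51.0% and 59.3% in I79 young and old and 51.6% and 62.9% in I10. ELN counts were too few to compare forms: its transcript ELN-208 held 26.5% of 410 estimated counts in I79 young and 17.1% of 690 in I10 young. It held 44.1% of 169 in I79 old and 29.0% of 152 in I10 old, where ELN-204 held more, at 48.4% and 44.9%.

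**Figure D4:**
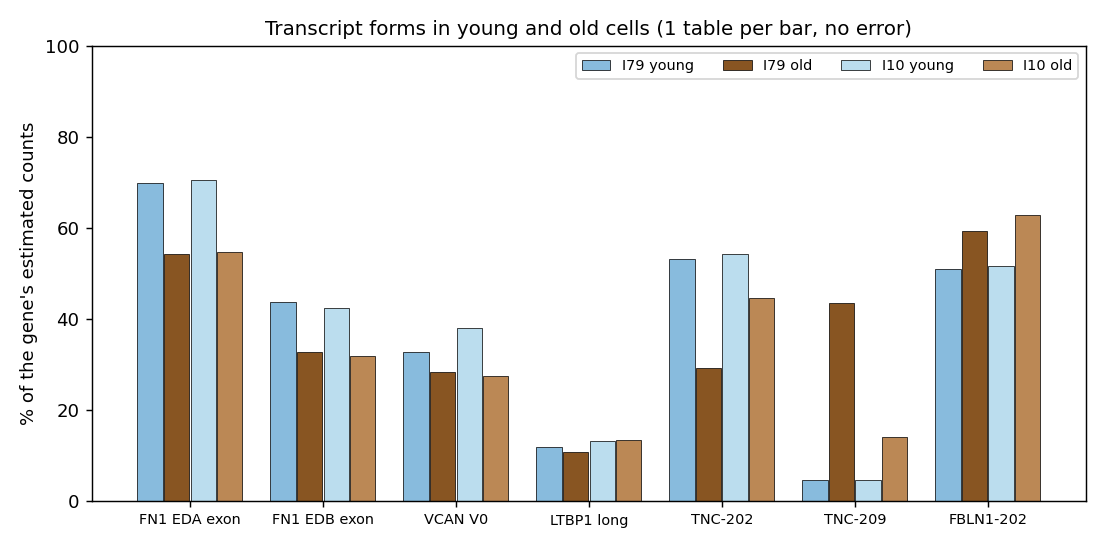
Share of estimated counts, in percent, on the named transcript forms in each deposited table (blue young, brown old; I79 darker, I10 lighter), with 1 table per bar and no error bar. FN1 EDA stands at 69.9% and 70.5% in the young bars against 54.3% and 54.7% in the old bars, and TNC-209 reaches 43.6% in I79 old.

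The last comparison set ICM-treated I79 cells beside the I79 young and old tables. These tables were counted in different ways, so only log2 ratios of CPM over shared genes are given, with no test. WT against I79 young is given beside them as a pair in which neither title names ICM. Member CPM in this comparison are over the total of the shared genes, without TMM scaling. Levels of the same I79 and WT libraries therefore differ from the TMM-scaled ones above. Most members were lower in the ICM libraries: of 42 with enough reads, 28 were lower than in I79 young by over 0.6 and 4 were higher. OGN is among the 28, but it passed the filter on mean reads only through the young tables, so it is no support for that count. Of all 13744 genes, 30.5% were lower and 28.6% higher by that much. WT was lower than I79 young by over 0.6 for 15 members and higher for 6, where the shares of all genes were 22.5% and 20.5%. The median ratio of members was -1.38 for ICM and -0.27 for WT, and -0.05 and -0.02 for all genes. Of the 7 fibroblast markers, 6 were lower in both ICM libraries than in I79 young, from PDGFRA at 86.2 and 97.1 against 1226 CPM to COL1A2 at 4120 and 4194 against 5433 CPM. THY1 was higher, at 577 and 583 against 537 CPM, and the part of these markers was not tested. Of the 28 members lower in ICM, 11 were also lower in WT by over 0.6, and in LAMA4, HSPG2, OGN, POSTN and TNXB the WT ratio was at or below that of ICM. By coding-region reads alone 6 members were higher and 26 lower. Then LAMB1, LAMB2, HSPG2, EFEMP1 and ECM1 came within 0.6 and EFEMP2, LOXL1, FMOD, PRELP and SPARC went past it.

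**Figure D5:**
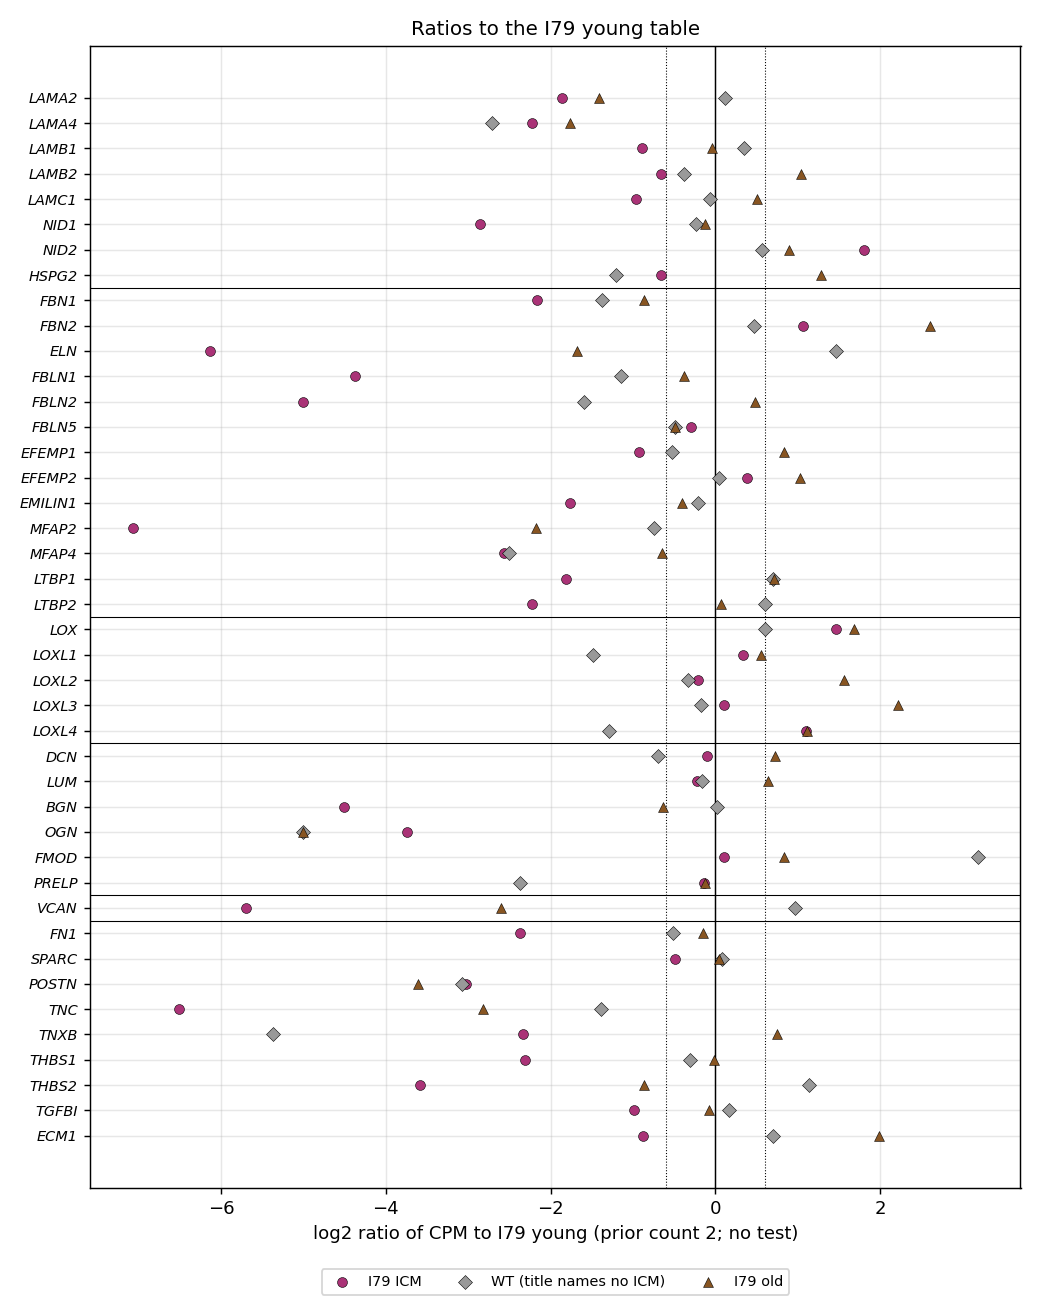
Log2 ratio of CPM to I79 young for the 42 members with enough reads, grouped by role with lines between roles, for I79 ICM (purple circles, mean of 2 libraries), WT (grey diamonds) and I79 old (brown triangles); dotted lines mark 0.6 in each direction. MFAP2, TNC, ELN, VCAN and FBLN2 lie at -5.00 or below in ICM, NID2 and LOX lie to the right, and POSTN and MFAP4 have nearly the same ratio in ICM and WT.

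Elastic fibre genes were among the lowest in ICM. MFAP2 had 2 and 1 reads in the ICM libraries against 385 estimated counts in I79 young, a log2 ratio of -7.74 with a counting interval from -10.02 to -6.18 (exact, 95%, no prior count). ELN had 4 reads in each ICM library and 410 in I79 young, a ratio of -6.41 (interval -7.63 to -5.42). Those intervals cover counting error only. FBLN2 was at 2.26 and 2.45 CPM in ICM and 77.8 CPM in I79 young, and FBLN1 at 23.2 and 24.5 CPM against 495 CPM. WT was at 25.7 and 224 CPM for these genes, so ICM was below WT as well. FBN2 (1.06) was higher than in I79 young, and FBLN5 (-0.29) was within 0.6. EFEMP2 had 0.39, and 0.76 by coding-region reads.

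Ratios were also low for most adhesive and matricellular genes and for the proteoglycans VCAN and BGN. TNC stood at 21.9 and 26.7 CPM in ICM, 2213 CPM in I79 young and 313 CPM in I79 old. VCAN stood at 10.4 and 11.6 CPM in ICM, 571 CPM in I79 young and 94.1 CPM in I79 old. Both were therefore lower in ICM than in either I79 table and than in WT, whose means were 844 and 1122 CPM. BGN was at 9.89 and 10.6 CPM against 234 CPM in I79 young, and THBS2 at 13.2 and 11.9 CPM against 151 CPM. FN1 had 1726 and 1714 CPM in ICM and 8895 CPM in I79 young, a ratio of -2.37, and THBS1 a ratio of -2.31. POSTN was low against I79 young (-3.02), but WT was as low (-3.07).

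Higher in ICM than in I79 young were NID2 (1.80), LOX (1.47), LOXL4 (1.10) and FBN2. The ratios of WT to I79 young for these genes were 0.57, 0.6, -1.29 and 0.47, so WT was lower only for LOXL4. LOX stood at 1260 and 1241 CPM in ICM, near the 1448 CPM of I79 old, with 452 CPM in I79 young. LOXL2 and LOXL3, called higher in old cells, had ICM ratios of -0.21 and 0.10 to I79 young. NID2, at 1628 and 1681 CPM, was above I79 old at 882 CPM. Within the small proteoglycans, DCN (-0.10) and LUM (-0.22) were close to I79 young. Against I79 old, 31 members were lower by over 0.6 and 2 higher (NID2, and OGN with 3 reads in all against 0), where all genes gave 26.6% and 32.3%.

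Laminins and nidogen 1 were lower in ICM than in I79 young. NID1 had 48.5 and 47.9 CPM against 348 CPM (-2.85), LAMA4 a ratio of -2.23, LAMA2 of -1.86, and LAMB1, LAMB2, LAMC1 and HSPG2 ratios between -0.96 and -0.66. In WT, which is not labelled as ICM-treated, LAMA4 had -2.71 and HSPG2 -1.20. Restricting the ICM tables to coding-region reads brought LAMB1, LAMB2 and HSPG2 to -0.25, -0.03 and -0.11. Other ratios in ICM were -2.56 for MFAP4 (-2.50 in WT), -2.16 for FBN1 (-1.38 in WT), -2.23 for LTBP2, -1.81 for LTBP1, -1.76 for EMILIN1, -0.99 for TGFBI, -0.93 for EFEMP1 and -0.88 for ECM1, the latter pair at -0.43 and -0.35 by coding-region reads. SPARC had -0.49, LOXL1 0.33, FMOD 0.11 and PRELP -0.14, and by coding-region reads -0.81, 0.64, -0.75 and -0.64, so FMOD turned in sign. In WT, FMOD had 3.19. TNXB had -2.34 in ICM, while WT had a mean of 0.0159 CPM of it against 0.751 CPM in ICM. OGN had 3 reads over both ICM libraries against 37 in I79 young, a log2 ratio of -4.36 (counting interval -6.7 to -2.7). Besides these, MFAP5, ASPN and HAPLN1 had too few reads for a ratio.

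A second list of 55 genes from the same matrix classes was read in the same fits. After knockdown 5 of 42 tested were called higher and 2 lower, where all genes gave 2.86% and 2.34%. ACAN, or aggrecan, a relative of versican, rose by 1.37 on the log2 scale (adjusted p 0.0043 by edgeR), CTHRC1, a secreted glycoprotein with a short collagen-like repeat, by 1.12 (adjusted p 0.00026) and HAPLN3, a link protein, by 0.97 (adjusted p 0.0037). MATN3, or matrilin 3, had a log2FC of -1.48 (adjusted p 9.9e-05) and SVEP1 of -1.07 (adjusted p 0.00064). In old cells 7 of 38 tested were called higher and 1 lower, where all genes gave 5.6% and 3.67%. LAMA1, a laminin alpha chain, rose by 2.37 (adjusted p 0.0042), CRIM1 by 1.91 (adjusted p 0.0044) and THSD4, which binds fibrillin, by 1.79 (adjusted p 0.0040), and HMCN1, or hemicentin 1, had -2.26 (adjusted p 0.0043).

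For 15 of the 45 members another annotated protein-coding gene overlaps, and the use of strand in counting WT and HMGB2 KD is not settled. LOX, LOXL2, EFEMP2, BGN, THBS1, NID2, FBN2, LOXL3 and OGN are among them, so some of their reads could belong to the overlapping gene.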

How the data were processed

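Raw counts per gene (WT, HMGB2 KD) were deposited by the authors for each library. The study names STAR on GRCh37 (2.6.0c per the labels) and featureCounts, but the tables end in htseq-count summary rows (16.9% to 18.0% of rows' totals, left out). For young and old cells the authors deposited transcript tables with estimated counts and TPM in the layout of salmon, which no source names. Their estimated counts were summed per gene by GENCODE 44 lifted to GRCh37, and rounded. Whether replicates were pooled there is not given in the sources used here. The ICM tables deposited by the authors split estimated counts by gene and region, with no aligner given. Columns of the authors' own fold changes and p-values were not used.

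Differences were tested with edgeR 4.0.16 (TMM, filterByExpr) in R 4.3.3. Adjusted p-values are Benjamini-Hochberg over all genes tested, and the SE is the log2 fold change over the square root of F. The adjusted p under 0.01 and log2 fold change over 0.6 are those of the study's methods. Its results text uses 0.05, run here as an alternative. Old against young left 1 residual degree of freedom. ICM ratios used 24305 shared genes, a prior count of 2, and a mean of at least 10 reads. Scripts were tested on simulated data. Replicates differed by more than sampling noise (chi-square over degrees of freedom, 2.24 to 41.7). Counting intervals (exact Clopper-Pearson) and the limit of 3 counts cover counting error only. All 45 members are named, with every library's value for those called, and at most 3 related genes per direction. Members and lists were chosen with earlier results of these data known.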

Additional observations from a re-analysis of the deposited data

Results flagged for a closer look

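In 4 members old cells of the isolates moved in opposite directions on the TMM scale, each beyond its counting error (exact, 95%). That error leaves out the choice of scaling. The difference between isolates was not tested, since each group had 1 table. FBLN2 had a log2 ratio of old to young of 0.65 in I79 and -1.24 in I10, a difference of 1.89. FBLN5 had -0.32 and 0.24, a difference of -0.56. LTBP2 had 0.24 and -0.29, a difference of 0.53. TGFBI had 0.09 and -0.16, a difference of 0.25. By CPM over plain totals of shared genes, the I79 value was -0.08 for TGFBI and 0.07 for LTBP2. TPM of TGFBI fell in both isolates, from 2658 to 2565 in I79 and from 2644 to 1960 in I10. FBLN5 also fell in both by TPM, from 193 to 144 and from 183 to 173. By TPM, FBLN2 and LTBP2 still rose in I79 and fell in I10.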

How the results depend on the processing

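After knockdown the count of members called was 14, and between 13 and 19 under RLE factors, plain library totals, upper-quartile factors, no filter, DESeq2, 1 RUVs factor and an adjusted p under 0.05. Leaving out 1 library gave between 6 and 18 members, and between 312 and 999 of all genes (797 with all 4), the lowest of both without HMGB2 KD replicate 2; without WT replicate 1 there were 9 members and 548 genes. Plain totals gave 385 higher and 484 lower genes in place of 438 and 359. With a replicate block 19 members and 1243 genes were called. The pairs share only a number, whose deviations correlated at 0.124, and with 2 pairs this is no evidence of pairing. In old cells the count was 15 members of 1403 genes. Plain totals gave 3141 genes and 21 members, no filter 4248 genes and 25 members, DESeq2 2157 genes and 23 members, and an adjusted p under 0.05 3842 genes and 25 members. With a single isolate and no test, 25 to 29 members passed 0.6. Related genes called in old cells were 8, and 15 with no filter. The cause of these changes was not tested. No called member changed direction in these fits. Calls were gained as well as lost. By DESeq2, SPARC and LOXL4 were called after knockdown. In old cells DESeq2 also called DCN, EFEMP1, HSPG2, LAMA4, LAMB2, LAMC1, LOXL1 and LTBP1. THBS2 was not called in old cells without the isolate covariate (adjusted p 0.024, edgeR) or from counts rebuilt from TPM (0.012), and OGN not from the latter (0.015). ICM counts were 32 members past 0.6 against I79 young under each alternative, but by coding-region reads 5 left, 5 entered and the split was 6 higher and 26 lower, not 4 and 28, and 30 to 36 against I79 old. By TPM, EDA shares were 58.6% and 44.6% in I79 young and old and 58.8% and 45.1% in I10. Depth limits MFAP5, ASPN, HAPLN1 and OGN.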
